A study of Homo sapiens with 12 samples.

Results

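Ribosome density, the number of ribosome footprints per unit of mRNA, was ranked across the mRNAs of HCT116 cells in which MEK1/2 had been inhibited with trametinib. The ranking covers 9952 of the 15798 gene symbols in the count table. A gene was included when every one of the 3 trametinib input libraries held at least 10 reads inside its open reading frame. At this limit, 161 genes entered with a lowest input count of 10 and 166 genes with a lowest count of 9 stayed out. The footprint values played no part in the choice.

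HCT116 is a human colorectal carcinoma line with an activating mutation in CTNNB1. The study profiled 12 libraries in 4 groups of 3: ribosome-protected fragments (RPF) and input RNA from dishes treated for 24 h with 100 nM trametinib, and the same pair of assays from dishes that received the solvent DMSO. All dishes were given cycloheximide for 5 min before lysis. Footprints were RNase I-resistant fragments from the monosome fraction, and input was fragmented RNA of the same 25 to 35 nt size range. The labels number the replicates but do not name cultures or days, so p-values measure the spread between these libraries.

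A ribosome shields the stretch of mRNA that it occupies from nuclease, and sequencing the shielded fragments shows which open reading frames carry ribosomes. The ratio of footprints to input on the same open reading frame is a relative measure of ribosomes per mRNA, and the length of the frame cancels in it. How often ribosomes start on an mRNA depends on the sequence around its start codon, on upstream reading frames that capture scanning ribosomes, and on elements such as the pyrimidine tract at the start of mRNAs for ribosomal proteins (the 5' terminal oligopyrimidine, or 5'TOP, motif), through which growth signalling controls their translation.

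The trametinib input libraries held 2276693 to 2475550 counts and the footprint libraries 12576032 to 19181588. The included genes took 99.2% to 99.4% of these counts. DUSP6, an ERK phosphatase that is transcribed when ERK is active, had 748, 628 and 515 input counts in DMSO and 5, 3 and 0 in trametinib, where it was below the input limit. The epithelial markers EPCAM, CDH1, CLDN4, KRT8, KRT18 and KRT19 all had at least 433 input counts in every trametinib library. The blood markers PTPRC and CD3E, the endothelial marker PECAM1 and the fibroblast marker DCN were at 0 in all 3 input libraries. COL1A2 had at most 1 count, whereas VWF (21 to 23 counts) and COL1A1 (14 to 35 counts) were detected.

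Density is given as the log2 ratio of footprint to input levels in CPM, the count per gene scaled to a common library size by TMM, with its standard error (SE). A value of 0 is the scaling centre of the libraries and not a known number of ribosomes. An mRNA was called higher or lower when its ratio was at least 2-fold from this centre with an adjusted p below 0.05 in edgeR's quasi-likelihood test, with Benjamini-Hochberg adjustment over all 9952 mRNAs. By this rule 1338 mRNAs (13.4%) were higher and 1756 (17.6%) were lower. In all 1338 higher mRNAs each footprint library lay above each input library, and in 1755 of the 1756 lower mRNAs each lay below. Over all 9952 mRNAs the libraries were separated in this way above in 3789 and below in 3827, and they overlapped in 2336. The calls were made from the same libraries, so the separation is not independent support for them. Without the fold limit, 3686 mRNAs lay above the centre and 3689 below it.

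**Figure D1:**
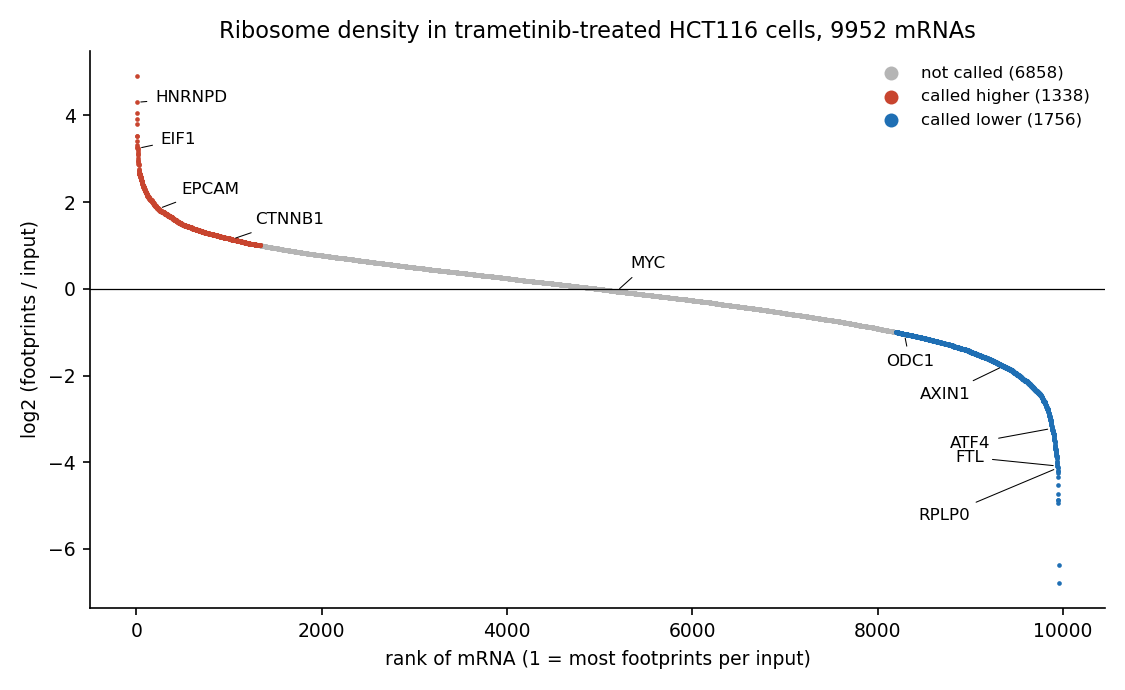
Rank of each of the 9952 mRNAs (horizontal axis, 1 = most footprints per input) against its log2 ratio of footprints to input in trametinib (vertical axis). Red points are the 1338 mRNAs called higher, blue points the 1756 called lower, grey points the others, and the ends of the ranking are steeper than its middle.

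The middle 80% of mRNAs spanned a 5.97-fold range of density, from a log2 value of -1.41 at the 10th percentile to 1.16 at the 90th. The lower tail reached further than the upper one: the 1st percentile lay at -2.92 and the 99th at 2.23. The median SE was 0.14 in all, and 0.20 among the 3212 mRNAs with a mean input count below 50 against 0.12 among the other 6740. Densities computed separately for each replicate number ranked the mRNAs with Spearman coefficients of 0.91 to 0.94 over the 9952 genes.

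The mRNA with the most footprints per input was HNRNPA0, which encodes an RNA-binding protein. It had 6.56, 8.38 and 9.30 CPM in the input libraries and 245, 247 and 233 CPM in the footprint libraries, a log2 density of 4.90 ± 0.14 (SE). The mean input behind this value was only 18.7 counts per library. At the other end, MINAR1 had 6.15, 9.70 and 10.2 CPM in input and 0.156, 0 and 0 CPM in footprints, that is, a mean of 1 footprint count against 20 input counts. Both genes were picked for their place in the ranking, after their values were seen, and the mRNAs named next had a mean of at least 50 input counts.

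Among these better covered mRNAs the 15 highest had log2 densities of 2.85 to 4.30, and none of them had an upstream AUG in its annotated 5' untranslated region (UTR). HNRNPD, an AU-rich element binding protein, led with 36.1, 17.2 and 18.6 CPM in input and 455, 413 and 561 CPM in footprints. All its footprint values lay far above all its input values, and its log2 density was 4.30 ± 0.19 (adjusted p = 1.83e-12). H3-3A, which encodes the replication-independent histone H3.3, had 162, 113 and 145 CPM in input and 1285, 1298 and 1492 CPM in footprints. Its log2 density was 3.28 ± 0.13. The initiation factor gene EIF1, whose product helps the scanning ribosome to select a start codon, had 77.5, 39.7 and 60.2 CPM in input against 550, 559 and 568 CPM in footprints, a log2 density of 3.24 ± 0.15. The footprint values of EIF1 varied less between libraries than its input values.

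The others of this group included the membrane traffic genes RAB1A (3.17 ± 0.16), SDCBP (3.32 ± 0.17), GABARAPL2 (3.11 ± 0.13) and VPS26A (2.87 ± 0.13). The actin regulators TMSB4X (3.09 ± 0.13) and DSTN (2.88 ± 0.12), the chaperone genes HSPE1 (3.03 ± 0.17) and PTGES3 (2.94 ± 0.13), the nucleosome-binding HMGN2 (2.97 ± 0.16), the calpain subunit gene CAPNS1 (3.25 ± 0.14), the mitochondrial DNA-binding SSBP1 (2.85 ± 0.13) and the interferon-induced IFITM3 (3.40 ± 0.20) completed it. In IFITM3 and HSPE1, 43.3% and 50.9% of the 28-nt words of the coding sequence also occur in another gene's coding sequence. The paper counted only reads that matched a single gene symbol, so reads from shared words may be missing from both assays. Most of these reading frames were short: TMSB4X has 135 coding nt and EIF1 has 342.

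The 15 lowest mRNAs with a mean of at least 50 input counts had log2 densities of -4.34 to -3.80. CCNB1IP1, which encodes an E3 ubiquitin ligase and has 8 upstream AUGs, had 81.6, 63.5 and 63.8 CPM in input and 3.74, 3.61 and 2.81 CPM in footprints, a log2 density of -4.34 ± 0.16 (adjusted p = 1.81e-13). RPLP0, the acidic stalk protein of the large ribosomal subunit, had 7186, 7170 and 6852 CPM in input and 392, 423 and 394 CPM in footprints. Its log2 density was -4.13 ± 0.10, and no footprint value came near an input value.

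FTL, the ferritin light chain, whose mRNA is repressed by iron regulatory proteins when iron is scarce, had 2549, 3048 and 3984 CPM in input and 173, 209 and 182 CPM in footprints. Its log2 density was -4.09 ± 0.15. METRN, a secreted neurotrophic factor, had 162, 161 and 169 CPM in input and 8.98, 11.3 and 8.34 CPM in footprints, a log2 density of -4.10 ± 0.12. The small-subunit protein gene RPS2 followed at -4.00 ± 0.12 and PPP1R15A, which encodes the GADD34 subunit of the eIF2α phosphatase, at -3.90 ± 0.18. The remaining members of the group were TNXB (-4.25), PARP6 (-4.09), MEIS3 (-4.03), SLC25A23 (-3.98), C6orf62 (-3.90), ZNF219 (-3.88), the creatine transporter gene SLC6A8 (-3.86), B4GALNT4 (-3.82) and NSMF (-3.80). TNXB rested on 51.3 input counts per library. Of these 15 mRNAs 9 had an upstream AUG and 6 had none (RPLP0, RPS2, FTL, METRN, TNXB and SLC25A23).

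The sequence around the start codon is shown for 5 of the highest and 5 of the lowest mRNAs, because a purine at position -3 and a G at +4 are the bases known to favour start codon recognition. Capitals mark position -3, the start codon and position +4, counted from the A of the start codon as +1. The sequences are those of the Gencode v44 representative transcripts (GRCh38), written as DNA.
HNRNPD: actagcActATGTcggaggag
H3-3A: ctctgtAccATGGctcgtaca
EIF1: tcgtatCgtATGTccgctatc
RAB1A: tgcagtGacATGTccagcatg
TMSB4X: tccgcaAccATGTctgacaaa
CCNB1IP1: tatcctAttATGTctttgtgt
METRN: cgccgtGccATGGggttcccg
FTL: caaccaAccATGAgctcccag
SLC25A23: gcgggcGccATGCgggggagc
C6orf62: tatttcAaaATGGgggaccca

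These 10 sequences are examples and do not stand for the whole groups: a pyrimidine at -3 was present in 6 of the 15 lowest mRNAs (TNXB, PARP6, MEIS3, RPS2, PPP1R15A and ZNF219) and in 1 of the 15 highest (EIF1). Over the nuclear mRNAs with both positions annotated, the context moved the median by less than upstream AUGs did. The median log2 density was 0.08 in the 4747 mRNAs with a purine at -3 and G at +4, -0.0014 in the 3918 with the purine alone, -0.34 in the 674 with a pyrimidine at -3 and G at +4, and -0.22 in the 524 with neither. Of the mRNAs with A at -3, 16.3% were higher and 15.7% lower, whereas of those with C at -3, 6.33% were higher and 22.9% lower.

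Upstream AUGs went with lower density. The median log2 density was 0.28 in the 5948 mRNAs without an upstream AUG, -0.24 in the 1900 with 1, -0.51 in the 889 with 2, and -0.79 in the 441 with at least 5. The share called lower increased from 10.1% without an upstream AUG to 40.1% with at least 5, against 17.5% of the 9872 annotated nuclear mRNAs. The Spearman coefficient between the number of upstream AUGs and density over 9865 mRNAs was -0.36 in trametinib and -0.40 in DMSO. These values describe the annotated transcripts, and the 5' ends used in these cells were not measured.

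Longer reading frames also had lower density. In the shortest of 5 equal groups of nuclear mRNAs by coding length, up to 813 nt, the median log2 density was 0.62, with 32.6% higher and 9.72% lower. In the longest group, from 2709 nt, it was -0.59, with 2.48% higher and 31.9% lower. Coding length and upstream AUGs were themselves related (Spearman 0.26 over 9865 mRNAs), yet each difference was present within levels of the other. In the shortest group the median was 0.72 without and 0.16 with an upstream AUG, and in the longest group it was -0.33 and -0.78. GC content at the third codon position had a coefficient of -0.28, 5' UTR length of -0.24 and input CPM per kb of coding sequence, a measure of mRNA abundance per length, of 0.26. The mean input count had a coefficient of 0.01. With density in DMSO the coefficients of the first 3 were -0.25, -0.29 and 0.27, the last still with trametinib input per kb. Genes are not independent replicates, and all these measures come from the same libraries and one annotation.

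**Figure D2:**
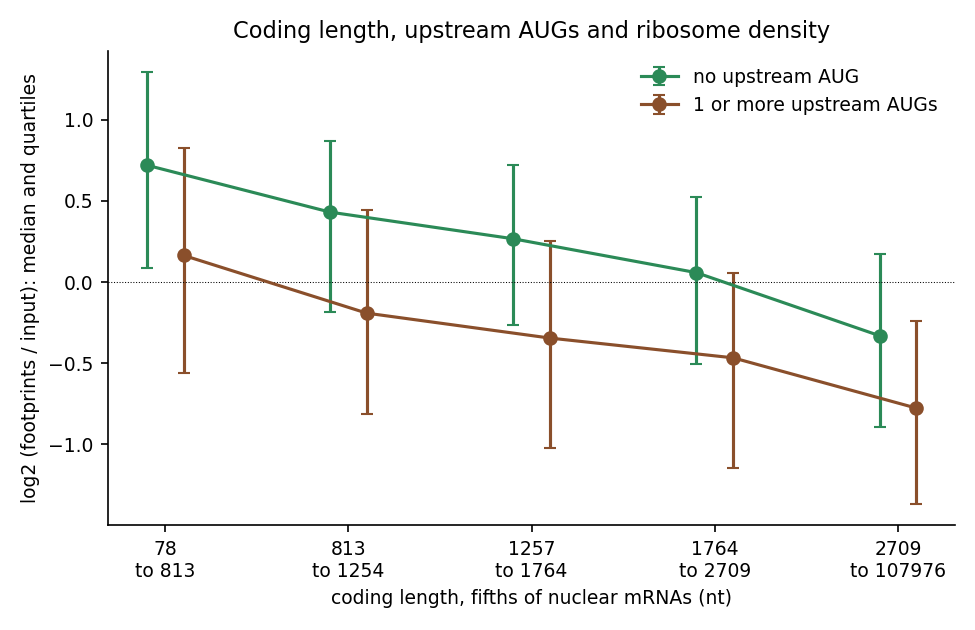
Median log2 ratio of footprints to input in trametinib (points) with its quartiles (bars) for nuclear mRNAs in 5 equal groups of coding length in nt (horizontal axis), split by the presence of an upstream AUG. Both lines fall from the shortest to the longest group, and mRNAs with an upstream AUG have the lower median in each.

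Ribosomal proteins and the other listed 5'TOP mRNAs, which encode elongation factors and further parts of the translation apparatus, had the lowest densities of the 25 lists examined. Of the 47 large-subunit protein mRNAs, 42 were lower and 1 was higher, with a median log2 density of -1.84. Of the 31 small-subunit protein mRNAs, 26 were lower and none was higher, with a median of -1.96. The 20 other 5'TOP mRNAs had 13 lower, none higher and a median of -1.33, against the median of -0.003 and the 17.6% lower of all mRNAs. The 3 lists together took 20.6% to 21.4% of the counts in the trametinib input libraries but 4.91% to 5.16% of the counts in the footprint libraries.

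EEF2, the elongation factor that moves the ribosome along the mRNA, had 11429, 11881 and 11910 CPM in input and 1886, 1949 and 1707 CPM in footprints, a log2 density of -2.67 ± 0.10 (adjusted p = 1.92e-13). EEF1A1, which delivers aminoacyl-tRNA to the ribosome and was among the 5 mRNAs with the most footprints per kb of coding sequence, nevertheless had a log2 density of -2.41 ± 0.10. EEF1G, a subunit of the exchange factor for eEF1A, was the lowest of the other 5'TOP mRNAs at -3.70 ± 0.11. Its CPM were 148, 140 and 148 in input and 12.1, 11.4 and 9.71 in footprints, so the assays were far apart in every library.

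Not all members were low. RPLP2, a second stalk protein, was called higher at 1.01 ± 0.20, with 347, 129 and 260 CPM in input and 501, 499 and 483 CPM in footprints. Its input libraries differed by more than 2-fold, and without input replicate 2 its log2 density was 0.69 and it was no longer called. Leaving out footprint replicate 1 also moved it to just under the fold limit. FAU had 353, 360 and 376 CPM in input and 355, 364 and 326 CPM in footprints, a log2 density of -0.06 ± 0.09, and the assays overlapped. COX4I1, a subunit of cytochrome c oxidase and the highest of the other 5'TOP mRNAs, was just below the fold limit at 0.98 ± 0.10. Of RPSA, 86.9% of the coding words are shared with other genes, so its log2 density of -3.60 is uncertain.

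The bases around the transcription start are shown for 5 mRNAs of these lists with a pyrimidine run and for 5 mRNAs from outside them, because the 5'TOP motif begins at the first transcribed base. Each window holds 10 bases before and 20 bases from the RefSeq start on (GRCh38.p14), and capitals mark a run that begins with C at the start and holds at least 5 pyrimidines. RPLP0 lies at chr12:120201092-120201121 (minus strand), EEF2 at chr19:3985444-3985473 (minus strand) and GAPDH at chr12:6535254-6535283 (plus strand).
RPLP0: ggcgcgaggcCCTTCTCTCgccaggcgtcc
RPS6: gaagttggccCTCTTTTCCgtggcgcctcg
EEF2: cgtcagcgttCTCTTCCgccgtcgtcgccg
TPT1: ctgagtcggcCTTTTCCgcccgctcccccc
EEF1A1: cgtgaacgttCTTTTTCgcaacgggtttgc
EIF1: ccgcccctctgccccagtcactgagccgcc
H3-3A: tgcgcgctccacacattgtttagaggccga
GAPDH: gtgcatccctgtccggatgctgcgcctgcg
CTNNB1: gcgccattttaagcctctcggtctgtggca
FTL: acgtcccctcgcagttcggcggtcccgcgg

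Of the 77 members of the 3 lists that have an entry among the RefSeq start windows, 54 (70.1%) held such a run on the transcribed strand, against 4.04% of all 27305 gene symbols with an entry. RPS6, the kinase substrate of the small subunit, had a log2 density of -2.37 ± 0.10 and TPT1, the translationally controlled tumour protein, -3.25 ± 0.11, whereas GAPDH lay at -0.12 ± 0.11. Outside the lists, 428 of 8048 mRNAs (5.32%) held the run, with a median log2 density of -0.26. The run was present in 7.96% of the lower and 3.71% of the higher mRNAs outside the lists. FTL, with a density close to that of RPLP0, had no run at its annotated start, and the run of RPL3 held only 4 pyrimidines.

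In DMSO the same 3 lists had higher medians: -0.80, -0.74 and -0.58 for the large subunit, the small subunit and the other 5'TOP mRNAs. The change between treatments was tested as the interaction of assay and treatment over all 12 libraries. Density rose in 10 mRNAs (0.10%) and fell in 92 (0.924%) at an adjusted p below 0.05, and 863 mRNAs had an unadjusted p below 0.05. Of the fallen mRNAs, 67 belonged to the 3 lists, which have 98 members in all: 35 of 47, 22 of 31 and 10 of 20. In these 67 the median log2 change of input CPM from DMSO to trametinib was 0.30, higher in 66 of them, and that of footprint CPM was -0.86, lower in all 67. Over all 9952 mRNAs the same medians were 0.08 and 0.10.

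EEF1G had the largest fall among the better covered mRNAs, by 2.01 ± 0.21 on the log2 scale (adjusted p = 0.00129). Its CPM in DMSO were 88.1, 83.9 and 93.7 in input and 34.3, 24.4 and 24.3 in footprints, so its input was higher and its footprints were lower in every trametinib library. RPL30 and RPL3 fell by 1.54 ± 0.22 and 1.52 ± 0.21, EEF2 by 1.25 ± 0.17, RPLP0 by 1.15 ± 0.17 and EEF1A1 by 1.10 ± 0.22. Outside the lists PRR11, a regulator of cell division, fell by 1.74 ± 0.23 and DNAH14, an axonemal dynein, by 1.54 ± 0.24.

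Only 3 better covered mRNAs rose relative to the scaling centre. CSNK1A1, the casein kinase that primes β-catenin for degradation, rose by 1.39 ± 0.31 (adjusted p = 0.0464). It had 115, 65.3 and 89.0 CPM in input and 371, 359 and 378 CPM in footprints in trametinib, and 201, 112 and 153 CPM in input and 289, 201 and 255 CPM in footprints in DMSO. DPP4, a cell-surface peptidase, rose by 1.22 ± 0.20 and PACS1, a trafficking adaptor, by 0.85 ± 0.16. The number of rises was not stable: leaving out any 1 of the 6 trametinib libraries left 1 to 5, and leaving out DMSO input replicate 2, DMSO footprint replicate 2 or DMSO footprint replicate 3 left 5, 2 and 5. Scaling by library totals gave 30 rises and 78 falls. Input and footprints were taken from the same lysates, but the labels do not tie replicate numbers to lysates. A block for each treatment and replicate number gave 23 rises and 128 falls.

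**Figure D3:**
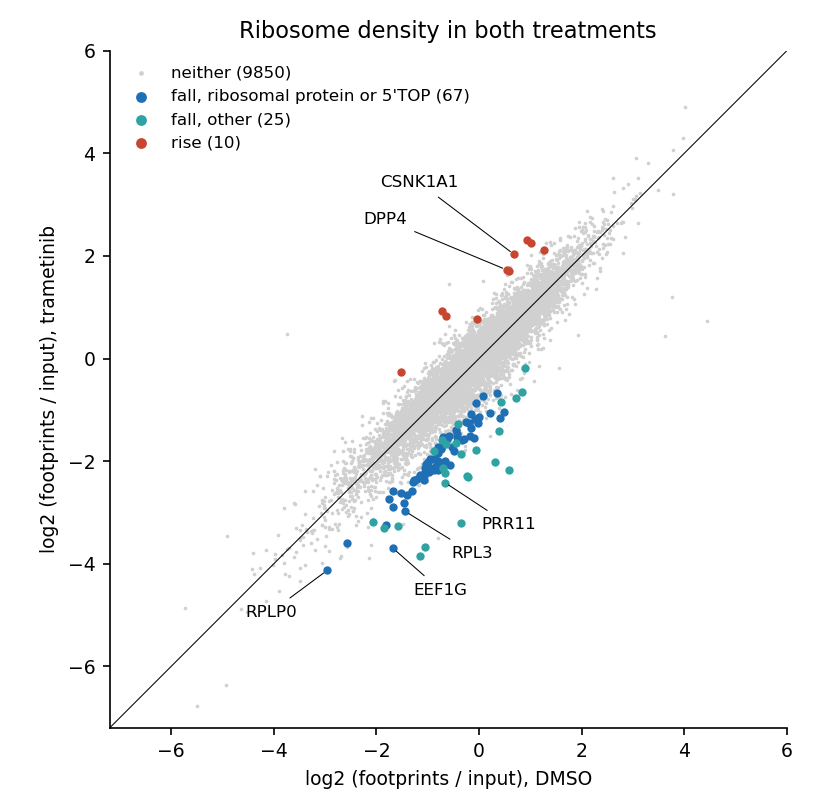
Log2 ratio of footprints to input in DMSO (horizontal axis) and in trametinib (vertical axis) for each of the 9952 mRNAs, with the line of equal density. Blue points are the 67 fallen ribosomal protein and other 5'TOP mRNAs, green points the other 25 fallen mRNAs, red points the 10 risen ones, and all coloured falls lie below the line.

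Beyond these mRNAs the order in trametinib was close to that in DMSO. The log2 densities had a Pearson coefficient of 0.94 and a Spearman coefficient of 0.94 over the 9952 genes, and the 2 fits share no library. Of the 995 mRNAs in the top 10% in trametinib, 785 were in the top 10% in DMSO, and of the 995 in the bottom 10%, 768 were in the bottom 10%. The middle 80% of mRNAs spanned 5.66-fold in DMSO.

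Splicing factors, the SR and hnRNP proteins that choose splice sites, had the highest median of the 25 lists. Of 29 members, 24 were higher (82.8%, against 13.4% of all mRNAs) and none was lower. The median log2 density was 1.43 against 1.56 in DMSO. HNRNPL was at 2.41 ± 0.10 and SRSF5 at 2.50 ± 0.17. HNRNPUL1 was the lowest, with 235, 252 and 290 CPM in input and 228, 235 and 234 CPM in footprints, a log2 density of -0.15 ± 0.10.

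Nuclear-encoded subunits of the respiratory chain were also ribosome-rich. Of 72 members, 36 were higher and 1 was lower, with a median of 0.98. ATP5PF, a coupling subunit of ATP synthase, had 49.2, 46.3 and 41.2 CPM in input and 275, 255 and 292 CPM in footprints, a log2 density of 2.59 ± 0.11. NDUFB7, a subunit of complex I, was the lower one at -1.03 ± 0.10, and leaving out footprint replicate 1 moved it to -0.99 and off the list of calls. Of the 72 mitochondrial ribosomal proteins 18 were higher (25.0%) and none was lower, with a median of 0.65. The cytosolic and the mitochondrial ribosomal protein mRNAs thus lay on opposite sides of the centre. Median coding length was 427.5 nt in the respiratory chain list and 601.5 nt in the mitochondrial ribosomal protein list. In the shortest length group, up to 813 nt, 32.6% of nuclear mRNAs were higher and the median log2 density was 0.62. The respiratory chain list, at 50.0%, lay above this share and the mitochondrial ribosomal proteins lay below it. Differences from mRNAs of matched length were not tested.

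The 13 mRNAs encoded in mitochondrial DNA are translated by mitochondrial ribosomes, on which cycloheximide does not act. Footprints came from the monosome fraction, and how much of the mitochondrial ribosomes it held was not measured. The ratios of these mRNAs may therefore not be on the scale of the other mRNAs. Of the 13 mRNAs, 8 were lower (61.5%) and 1 was higher (7.69%), with a median of -1.16, against 17.6% and 13.4% of all mRNAs. MT-ND6, the only one on the light strand, was lowest with 1463, 1712 and 1491 CPM in input and 181, 217 and 278 CPM in footprints, a log2 density of -2.79 ± 0.14. MT-ATP8, whose frame overlaps that of MT-ATP6, was highest at 1.27 ± 0.13. The list took 3.12% to 4.93% of input and 2.05% to 2.15% of footprint counts. Its median in DMSO was -1.79, and none of the 13 passed the test of change.

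**Figure D4:**
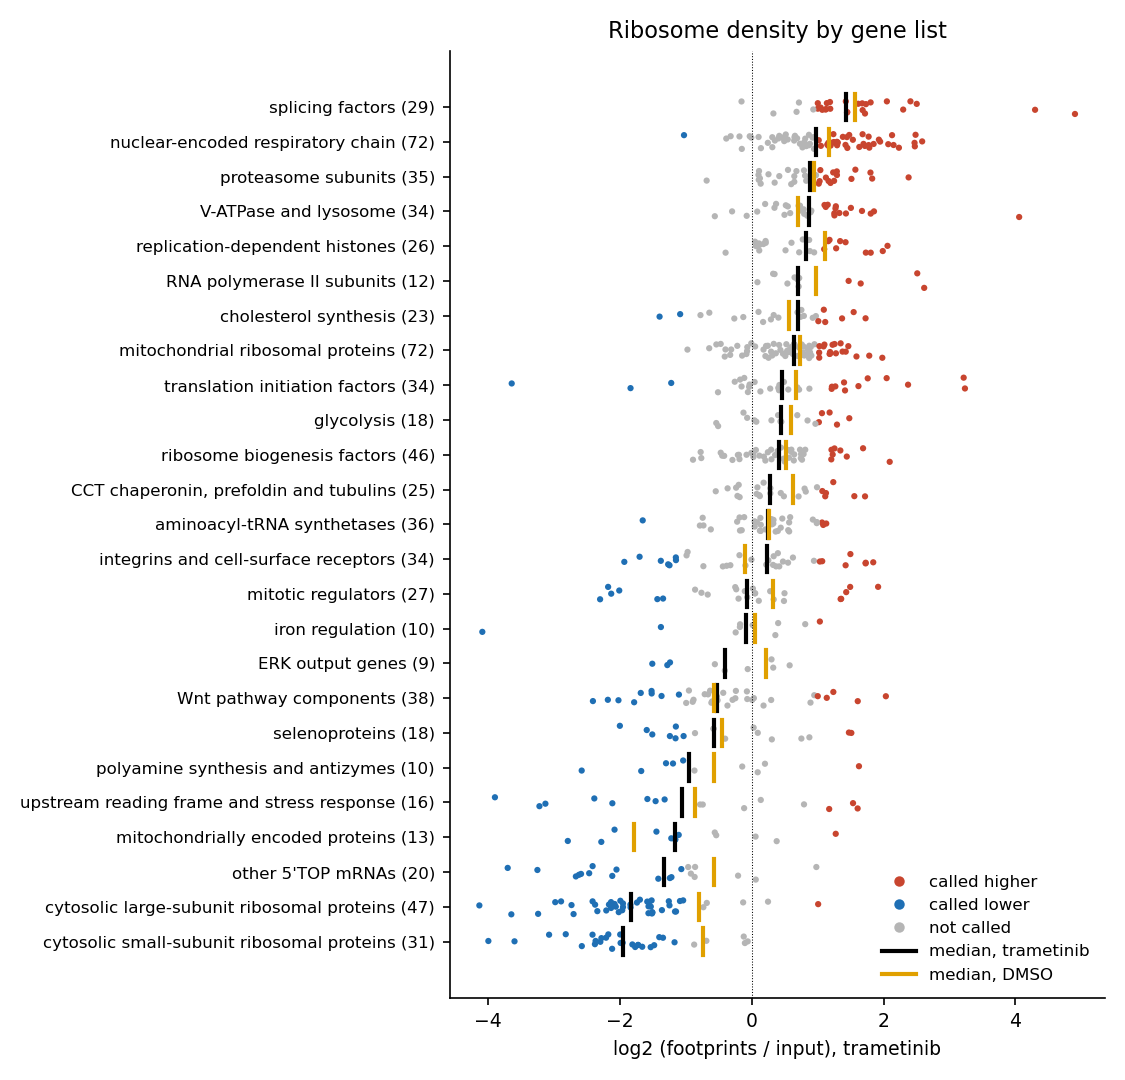
Log2 ratio of footprints to input in trametinib (horizontal axis) for the members of 25 gene lists (rows, number of members in brackets, ordered by median). Points are mRNAs coloured by call, black bars are medians in trametinib and yellow bars medians in DMSO, and the black bars lie clearly left of the yellow ones in the 3 ribosomal protein and 5'TOP lists at the bottom.

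Several large protein complexes leaned to the high side. Of 35 proteasome subunits 15 were higher and none was lower (median 0.89), of 34 V-ATPase and lysosome genes 14 and none (0.86), of 12 RNA polymerase II subunits 4 and none (0.70), and of 26 replication-dependent histones 10 and none (0.82), against 13.4% higher among all mRNAs. Median coding length was 441 nt in the RNA polymerase II list and 393 nt in the histone list, of which 33.3% and 38.5% were higher. In the shortest length group of nuclear mRNAs, 32.6% were higher. Differences from mRNAs of matched length were not tested. SEM1 was the highest proteasome subunit at 2.38 ± 0.12 and PSMD3 the lowest of those with a mean of at least 50 input counts, at 0.10 ± 0.09. H4C5 was at 2.06 ± 0.11. Histone mRNAs of this class lack a poly(A) tail, and the paper describes rRNA depletion of the input and no poly(A) selection. Of the 64 listed genes, 54 were in the count table and 26 reached the input limit. POLR2L was at 2.62 ± 0.12 and LAMP2, a lysosomal membrane protein, at 1.85 ± 0.13.

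Metabolic enzymes were mixed. The shares in this paragraph stand against 13.4% higher and 17.6% lower among all mRNAs. Of 18 glycolysis genes 5 were higher (27.8%) and none was lower (median 0.44), with LDHA at 1.48 ± 0.10 and the lactate transporter SLC16A3 at -0.54 ± 0.10. Of 23 cholesterol synthesis genes 6 were higher (26.1%) and 2 lower (8.7%, median 0.69). HMGCS1, which makes HMG-CoA, was at 1.73 ± 0.13, whereas SREBF2, the transcription factor that controls the pathway, was at -1.40 ± 0.09 with 2 upstream AUGs. The aminoacyl-tRNA synthetases were near the centre, with 3 of 36 higher (8.33%) and 1 lower (2.78%, median 0.25). The lower one, QARS1, lay at -1.65 ± 0.09. The chaperonin, prefoldin and tubulin list had 6 of 25 higher (24.0%) and none lower (median 0.28). PFDN2 was its highest member at 1.72 ± 0.13, whereas the cytoplasmic actin ACTG1 was its lowest at -0.55 ± 0.13. The other cytoplasmic actin, ACTB, lay at 1.12 ± 0.13, with 22% of its coding words shared with other genes.

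The lists of initiation factors and ribosome biogenesis factors had medians above the centre. Of 34 initiation factors 11 were higher (32.4%) and 3 lower (median 0.45), and of 46 ribosome biogenesis factors 8 were higher (17.4%) and none lower (median 0.42), against 13.4% higher and 17.6% lower among all mRNAs. NOP10, a snoRNP protein, was highest of the latter at 2.09 ± 0.13 and NOB1, which cleaves the precursor of 18S rRNA, lowest at -0.89 ± 0.09. FBL, the rRNA 2'-O-methyltransferase of the same list, was called neither higher nor lower at -0.19 ± 0.10 but fell from DMSO by 1.07 ± 0.18 (adjusted p = 0.00536). NOP53, a ribosome biogenesis factor outside these lists that was picked after its values were seen, was low at -3.31 ± 0.10. The lowest initiation factor mRNA was EIF3C at -3.64 ± 0.36, on a mean of 12.3 input counts and with 99.5% of its coding words shared with another gene. EIF4G2, which supports initiation without eIF4E and whose own mRNA starts at a non-AUG codon, was low with 1821, 1869 and 1764 CPM in input and 490, 493 and 542 CPM in footprints, a log2 density of -1.84 ± 0.09.

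Genes known for upstream reading frames or the stress response had a median of -1.05, with 8 of 16 lower and 3 higher. These shares of 50.0% and 18.8% stand against 17.6% and 13.4% of all mRNAs. ATF4, the transcription factor whose main frame is reached when eIF2α is phosphorylated, had 272, 349 and 302 CPM in input and 34.1, 34.7 and 30.1 CPM in footprints, a log2 density of -3.22 ± 0.11 (adjusted p = 8.51e-14). PPP1R15A had 37.3, 52.0 and 43.0 CPM in input and 2.91, 3.40 and 2.49 CPM in footprints. UCHL5, a deubiquitinase, was on the high side at 1.61 ± 0.13, and the chaperone HSPA5 at 1.54 ± 0.10.

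The DMSO dishes differed among themselves for this list. ATF4 had 1109, 731 and 617 CPM in DMSO input and 506, 256 and 118 CPM in DMSO footprints, and PPP1R15A had 198, 69.5 and 41.3 CPM in input and 53.1, 12.3 and 4.40 CPM in footprints, with replicate 1 highest in each. The density of ATF4 differed from DMSO by -1.72 ± 0.52, with an adjusted p of 0.23. With DMSO replicate 1 left out of both assays, a check added after this was seen, the difference was -1.35 with an adjusted p of 0.035. That of PPP1R15A was -1.05 with an adjusted p of 0.43. The part of these dishes in the results was not tested further.

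In the polyamine list 5 of 10 mRNAs were lower (50.0%) and 1 higher (10.0%, median -0.95), against 17.6% and 13.4% of all mRNAs. OAZ1, the antizyme whose synthesis needs a programmed frameshift, had 389, 431 and 437 CPM in input and 69.6, 73.3 and 67.1 CPM in footprints, a log2 density of -2.58 ± 0.10. AZIN1, the antizyme inhibitor that is controlled by an upstream conserved coding region, lay at -1.68 ± 0.10 and fell from DMSO by 1.00 ± 0.22 (adjusted p = 0.0493). ODC1, the first enzyme of polyamine synthesis, was at -1.04 ± 0.09, whereas AMD1 (0.09 ± 0.17) and SMS (0.20 ± 0.09) lay near the centre.

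Selenoproteins insert selenocysteine at an in-frame TGA codon that would otherwise end translation. Of 18 members 7 were lower (38.9%) and 2 higher (11.1%, median -0.58), against 17.6% and 13.4% of all mRNAs. The codon is shown in capitals for 4 of them, with 9 bases of coding sequence on each side, because it defines the class, and the 4 were taken from both ends of the list.
SELENOW: tgtggcgctTGAggctacaag
GPX4: gcctcccagTGAggcaagacc
GPX1: gcgtccctcTGAggcaccacg
MSRB1: tcccgattcTGAatattcagc
SELENOW, the lowest, has it at codon 13 of 87 and had 40.6, 39.2 and 36.8 CPM in input and 10.3, 10.3 and 8.42 CPM in footprints, a log2 density of -2.0 ± 0.14. MSRB1, the highest, has it at codon 95 of 116 and had 27.5, 26.0 and 27.9 CPM in input and 75.6, 77.4 and 79.3 CPM in footprints, a log2 density of 1.51 ± 0.12. GPX4, the lipid peroxidase that guards against ferroptosis, has it at codon 73 of 197 and lay at -1.59 ± 0.12, and GPX1 has it at codon 49 of 203 and lay at -1.15 ± 0.11. The other lower mRNAs had the codon early, as SELENOT (codon 49 of 195) and SEPHS2 (60 of 448), or late. TXNRD1 and SELENOO, which have it at codon 648 of 649 and 667 of 669, were at -1.03 and -1.24. Both higher mRNAs, MSRB1 and SELENOS (codon 188 of 189), had it late. SELENOM, with codon 48 of 145, lay at 0.09. A relation between the place of the codon and density was not tested.

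Of the 10 iron regulation genes 2 were lower and 1 was higher (median -0.08). These shares of 20.0% and 10.0% were near the 17.6% and 13.4% of all mRNAs. The ferritin subunits differed. FTH1, the heavy chain, had 3865, 2052 and 4032 CPM in input and 1144, 1378 and 1307 CPM in footprints, a log2 density of -1.38 ± 0.18, against -4.09 for FTL. TFRC, the transferrin receptor, had 428, 428 and 352 CPM in input and 840, 799 and 835 CPM in footprints, a log2 density of 1.03 ± 0.10. Leaving out input replicate 3 moved TFRC to 0.93, below the fold limit.

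The Wnt pathway, through which β-catenin drives transcription in these cells, had 9 of 38 mRNAs lower and 5 higher (median -0.52). These shares of 23.7% and 13.2% stand against 17.6% and 13.4% of all mRNAs. Of the scaffold genes of the destruction complex, AXIN1 had 25.0, 29.1 and 28.8 CPM in input and 6.23, 9.64 and 8.42 CPM in footprints, a log2 density of -1.78 ± 0.18 (adjusted p = 6.74e-08). AXIN2 was close to it at -1.68 ± 0.20 on a mean of 38.7 input counts. APC was at -0.99 ± 0.10, just inside the fold limit, and leaving out input replicate 2, input replicate 3 or footprint replicate 1 gave -1.02, -1.03 and -1.06 and a call.

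CTNNB1, the mRNA of β-catenin itself, had 772, 736 and 642 CPM in input and 1532, 1510 and 1693 CPM in footprints, a log2 density of 1.14 ± 0.10. GSK3B was near the centre at 0.18 ± 0.10 and DVL1, which recruits AXIN1 to the receptor, was lowest at -2.41 ± 0.11. In DMSO the values were -1.62 for AXIN1, -1.57 for AXIN2, -1.36 for APC, 1.34 for CTNNB1 and -0.05 for GSK3B. None of these 5 passed the test of change. The change of AXIN1 relative to the scaling centre was -0.13 with an adjusted p of 0.97.

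**Figure D5:**
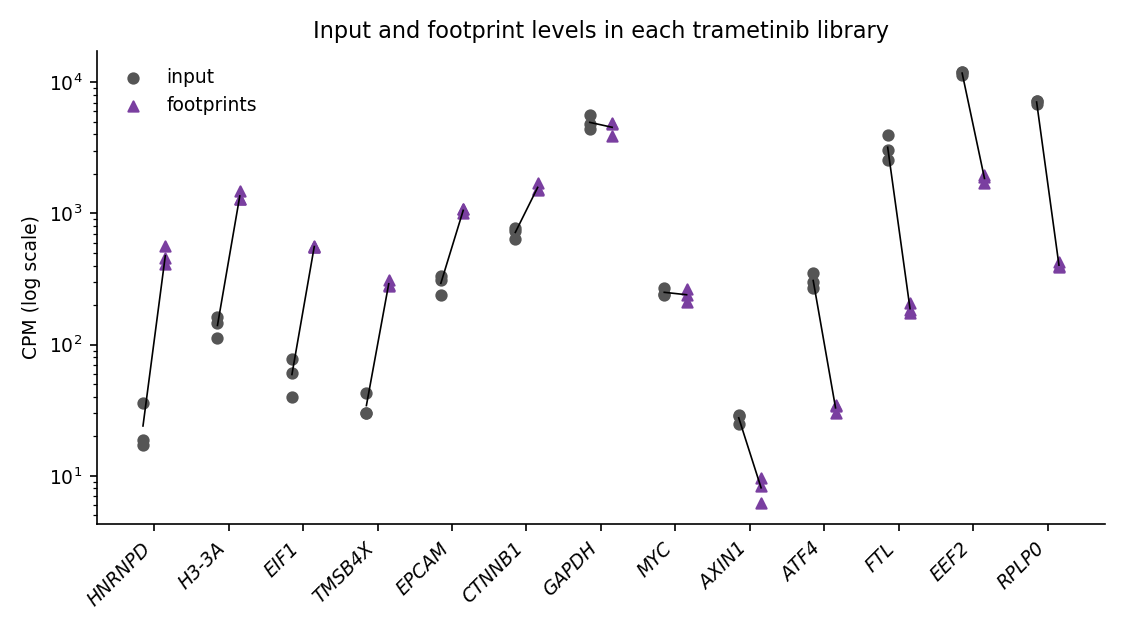
CPM of 13 mRNAs (horizontal axis, from highest to lowest density group) in each trametinib library on a log scale (vertical axis). Circles are the 3 input libraries, triangles the 3 footprint libraries and lines join the means, and the line rises for HNRNPD to CTNNB1, is nearly level for GAPDH and MYC and falls for AXIN1 to RPLP0.

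Of the 18 listed ERK output genes 9 reached the input limit in trametinib, and 3 of these (33.3%) were lower and none higher (median -0.41). MYC had 245, 237 and 269 CPM in input and 266, 240 and 213 CPM in footprints, a log2 density of -0.06 ± 0.10, and the assays overlapped. IER3, an immediate early gene, had 19.3, 27.8 and 26.1 CPM in input and 7.48, 11.9 and 6.26 CPM in footprints, a log2 density of -1.51 ± 0.23. Mitotic regulators had 6 of 27 lower (22.2%) and 5 higher (18.5%), against 17.6% and 13.4% of all mRNAs, and a median of -0.07 whose sign turned with the input limit. The checkpoint protein gene BUB3 was at 1.43 ± 0.10 and CENPF, a large kinetochore protein, at -2.13 ± 0.11. Integrins and surface receptors had 7 of 34 lower and 7 higher (20.6% each, median 0.24), with EPCAM at 1.84 ± 0.12 and the ephrin receptor EPHB4 at -1.70 ± 0.10.

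The 5 mRNAs with the most footprints per kb of coding sequence were TMSB10, S100A6, S100A4, EEF1A1 and PTMA, and their densities differed widely. S100A4, a calcium-binding protein, was at 1.93 ± 0.13, the actin-binding TMSB10 at 1.66 ± 0.09, S100A6 at 1.23 ± 0.09 and PTMA, prothymosin, at 0.28 ± 0.13 with overlapping assays, whereas EEF1A1 lay at -2.41.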

How the data were processed

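Ribosome footprints and fragmented input RNA were sequenced from HCT116 cells. The authors removed adapters with the FASTX-toolkit and reads from rRNA and tRNA with Bowtie 1.2.2, mapped the rest to the Gencode V38 basic transcripts (GRCh38) and deposited raw counts of reads inside open reading frames per gene symbol. They also deposited a normalised signal, the count divided by a DESeq2 1.46.0 size factor, which was not used for tests, and fold changes and p-values of their own comparison, which were not used.

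The counts were scaled by TMM and tested in R 4.3.3 with edgeR 4.0.16, footprints against input in the 6 trametinib libraries and, for the change, as an interaction over all 12. DESeq2 1.42.0 was an alternative. Input RNA was set aside from the lysates that gave the footprints, but the labels do not say that a number marks 1 lysate. Deviations of same-numbered input and footprint libraries had correlations of 0.80, 0.17 and 0.34 in DMSO and 0.15, 0.08 and -0.13 in trametinib. In DMSO only number 1 stood out from the different-numbered pairs. Input 2 with footprints 3 had 0.43 and input 3 with footprints 2 had 0.50, whereas different-numbered pairs that included number 1 had -0.63 to -0.41. The highest value in trametinib was 0.21, for input 3 with footprints 2. The main fits had no replicate term, and fits with one were alternatives. TMM factors were fitted to the included genes. Features came from 1 representative transcript per gene of Gencode v44, on the same assembly, for 15449 of 15798 symbols, and start windows from RefSeq (GRCh38.p14).

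Named genes were the 15 highest and 15 lowest called mRNAs with a mean of at least 50 input counts and all libraries on one side, the highest and lowest of each list at that coverage, 20 fixed genes, the 5 largest changes each way, and the 5 with most footprints per kb. The included genes and the lists were chosen with earlier results of these data known. Input libraries held 2276693 to 2475550 counts and footprint libraries 12576032 to 19181588, so input depth set most of the counting error. Some items are not reported here.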

Additional observations from a re-analysis of the deposited data

Results flagged for a closer look

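For 12 of the named mRNAs the ribosome density differed between treatments by the interaction test of edgeR over all 12 libraries with Benjamini-Hochberg adjustment, and their log2 changes are given here as trametinib minus DMSO. The rises were 1.39 for CSNK1A1, 1.22 for DPP4 and 0.85 for PACS1. AZIN1 changed by -0.999, EEF1A1 by -1.10, RPLP0 by -1.15, EEF2 by -1.25, RPL3 by -1.52, DNAH14 by -1.54, RPL30 by -1.54, PRR11 by -1.74 and EEF1G by -2.01. Adjusted p-values ranged from 0.00129 for EEF1G to 0.0493 for AZIN1. With both libraries of DMSO replicate 1 left out, the changes were 1.27 for CSNK1A1, 1.18 for DPP4, 0.82 for PACS1, -0.91 for AZIN1 and -1.82 for EEF1G, each at an adjusted p of 0.0275 or below. CSNK1A1, DPP4, PACS1, AZIN1, EEF1A1, EEF2, RPLP0, RPL3, RPL30, DNAH14, PRR11 and EEF1G all had a mean of at least 50 input counts in trametinib. All of these except AZIN1, EEF1A1, EEF2 and RPLP0 were named by a rule that required both this coverage and a change that passed the test. Groups of 3 libraries are too small for a test of single outlying samples.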

How the results depend on the processing

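The counts of higher and lower mRNAs stayed within 1.5 times of 1338 and 1756 under RLE factors, library totals, DESeq2's Wald test and no filter on input. A minimum of 50 input counts, which left 6251 mRNAs, gave 793 and 1100, no fold limit gave 3686 and 3689, and a test against 2-fold itself (glmTreat) gave 811 and 1192. Leaving out 1 library gave 1296 to 1382 higher and 1711 to 1812 lower mRNAs. Scaling without the 5'TOP and mitochondrially encoded genes, chosen after seeing the data, gave 1345 and 1749. The 10 rises were the least stable result: RLE factors and the minimum of 50 counts gave 6 each, library totals 30, DESeq2's likelihood ratio test 35 and an adjusted p below 0.1 gave 27. Leaving out 1 library gave 1 to 13 rises and 63 to 117 falls, and leaving out DMSO replicate 1 in both assays, also chosen later, gave 18 and 129. DESeq2 gave 149 falls against 92. Library totals moved the median change of all mRNAs from 0.05 to 0.17. The causes were not tested.

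Whether the replicate numbers pair input with footprints is not settled by the labels: deviations from the group means of same-numbered libraries had correlations of 0.15, 0.08 and -0.13 in trametinib and 0.80, 0.17 and 0.34 in DMSO over 8263 genes. Different-numbered pairs ranged from -0.29 to 0.21 in trametinib and from -0.63 to 0.50 in DMSO. A replicate block by number gave 1343 higher and 1758 lower mRNAs, 9 rises and 95 falls. A block for each treatment and number, which takes same-numbered libraries as 1 dish, gave 23 rises and 128 falls. Of these rises and falls, 100 in all were among the 102 changed mRNAs of the fit without a block.

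Of 1190 values of named mRNAs under alternatives, 4 reversed: leaving out 1 library gave -0.10 to 0.36 for AMD1, -0.10 to 0.13 for H2AC21, -0.14 to 0.017 for MYC and -0.0022 to 0.15 for POLR2B. Of 324 list medians 278 moved by less than 1 SD of the medians over replicate numbers. The median of the mitotic regulators turned to 0.26 at 50 input counts, 0.11 without a filter and 0.05 without input replicate 1. Input depth limits the ranking: 3212 mRNAs had fewer than 50 input counts per library.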

Other observations

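Of the 92 mRNAs that fell between treatments, 25 belong to none of the ribosomal protein and 5'TOP lists. Those named here were picked after their values were seen. SKA3, a kinetochore protein, had 10.3, 10.1 and 10.6 CPM in trametinib input and 1.92, 1.87 and 3.21 CPM in trametinib footprints, against 34.7, 40.4 and 32.1 CPM and 40.5, 60.0 and 59.5 CPM in DMSO, a log2 change of density of -2.72 (adjusted p = 0.00172). The SE of the SKA3 change was 0.33. FBXO5, an inhibitor of the anaphase-promoting complex, changed by -2.29 ± 0.26, CENPJ, a centriole protein, by -2.06 ± 0.25 and KIF15, a spindle motor, by -1.40 ± 0.30. NCAPD2, a condensin subunit, changed by -1.49 ± 0.28, DNA2, a helicase and nuclease, by -2.03 ± 0.29 and FANCB, of the Fanconi anaemia core complex, by -2.83 ± 0.43. Mean trametinib input counts were 24.0 for SKA3, 36.3 for FBXO5, 35.7 for CENPJ, 22.7 for KIF15 and FANCB and 48.0 for DNA2. NCAPD2 had 685. The ribosome biogenesis genes FBL and NOP53 were also among the 25, with changes of -1.07 and -1.43. Of the 27 listed mitotic regulators 3 fell (SKA3, FBXO5 and CENPJ), against 0.924% of all mRNAs, and all 3 had a mean trametinib input count below 50. Over the 25 mRNAs the median log2 change was -0.98 for input CPM and -2.59 for footprint CPM, and footprints were lower in 24. Input was higher in 6 of them. Of the 25, 12 had a mean trametinib input count below 50, as had 7 of the 10 mRNAs that rose.

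MUC16, PRR15L and TNFSF10 were at 0 in all 3 DMSO input libraries and had a mean of 36, 11.7 and 14.3 input counts in trametinib, so their DMSO densities have no measured input behind them.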
